A study of Mus musculus with 8 samples.

Results

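The 8 genes Dlk1, Wnt10b, Gata2, Pdgfra, Pdgfrb, Ly6a, Cd34 and Thy1 are markers of pre-adipocytes and of stromal progenitors, the undifferentiated cells from which adipocytes arise. They were taken by name as precursor markers by a rule that uses no measured value, although the choice was made with earlier results of these data known, and all 8 were found among the 43629 Ensembl genes counted. 7 of the 8 had at least 1 count in any library, and 6 passed the filter on low counts and could be tested. The comparisons ask whether transcripts of undifferentiated precursors rose or fell in adipocyte cultures treated with a PI3K inhibitor, with a saturated fatty acid, or with both.

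Messenger RNA was sequenced from 3T3-L1 adipocytes, cells of a clonal mouse pre-adipocyte line of embryonic fibroblast origin that accumulates fat once differentiation is induced. The labels name no transgene or deletion, and all 4 groups shared the same induction with 1 μM insulin, 1 μM dexamethasone, 0.5 mM isobutylmethylxanthine and 1 μM rosiglitazone in medium with serum. Treatment began on day 8 and lasted 24 h. The groups, with 2 libraries each, were untreated cells, cells given 2 μM A66 (a small molecule that inhibits p110α, a catalytic subunit of PI3K), cells given 0.5 mM palmitate bound to BSA at a molar ratio of 3 to 1, and cells given palmitate plus A66. The labels name no BSA or solvent for the untreated cells, so palmitate and its carrier cannot be told apart. The methods of the study name DMSO as the vehicle of A66 and a dose that differs from the labels. Each sample was a whole culture, and how many of its cells had differentiated was not recorded in the labels, so that fewer cells of a type and less RNA per cell cannot be told apart.

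In the differentiation of a pre-adipocyte, extracellular signals such as WNT10B and DLK1 and transcription factors such as GATA2 hold back the adipogenic programme led by PPARγ, and their expression falls as the cell fills with lipid. PDGFRα, PDGFRβ, SCA-1 (the product of Ly6a), CD34 and THY1 are surface proteins by which progenitors are sorted from the stroma of fat tissue. PDGF receptors also recruit and activate class I PI3K, the enzyme family that A66 inhibits.

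The libraries held between 42247091 and 57529803 counts, and 3 counts, taken as the smallest detectable amount, corresponded to between 0.0521 and 0.071 CPM, the usual scale of counts relative to the library total. TMM factors from edgeR were applied to the CPM values, and levels of different genes were ranked as CPM per kilobase of exon. Replicates varied by more than counting noise, with a common biological coefficient of variation of 0.0377 in the 4 libraries without palmitate and 0.0406 in all 8. The labelled cell type was checked against its markers. Adipoq, which encodes adiponectin, averaged 1635 CPM per kilobase, Fabp4, a fatty acid binding protein, 639, Cidec, a lipid droplet protein, 352, and Plin1, which coats lipid droplets, 99. All 14 adipocyte markers examined were expressed. Of 6 genes of macrophages and lymphocytes 3 had 0 counts in all 8 libraries, Adgre1 and Cd3e among them, and the list summed to between 0.149 and 0.277 CPM, most of it from Csf1r (79 counts in all). Of 5 endothelial genes Kdr had 0 counts in all libraries, Cdh5 had 2 and Emcn 14, whereas Pecam1 had 260 and Tek 179. The endothelial list summed to between 0.881 and 1.3 CPM.

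The precursor markers fell into 2 groups by level. Pdgfrb, Ly6a, Thy1 and Pdgfra were expressed at 37.7 ± 1.86, 15.3 ± 2.39, 10.2 ± 0.815 and 9.70 ± 0.648 CPM per kilobase (mean ± SD over 8 libraries), above the median tested gene at 4.81. They stood at the 92.3rd, 78.9th, 69.7th and 68.3rd percentiles of all tested genes. Gata2 and Cd34 were barely expressed, at 0.0829 ± 0.018 and 0.0402 ± 0.011 CPM per kilobase, or the 4.63rd and 1.45th percentiles. Wnt10b and Dlk1 were at or near 0. In this order the ranges of Thy1 (8.94 to 11.1) and Pdgfra (8.77 to 10.8) overlapped, while the lowest Ly6a library at 12.8 lay above the highest Thy1 library, and the lowest Gata2 library at 0.0608 lay above the highest Cd34 library at 0.0537. All 6 tested markers were lower per kilobase than the 4 adipocyte markers drawn in the histogram of levels. Of the other 10 adipocyte markers Lep, at 4.0 CPM per kilobase, lay below Ly6a, Thy1 and Pdgfra, and Car3 and Cebpa, at 15.4 and 25.3, lay below Pdgfrb.

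**Figure D1:**
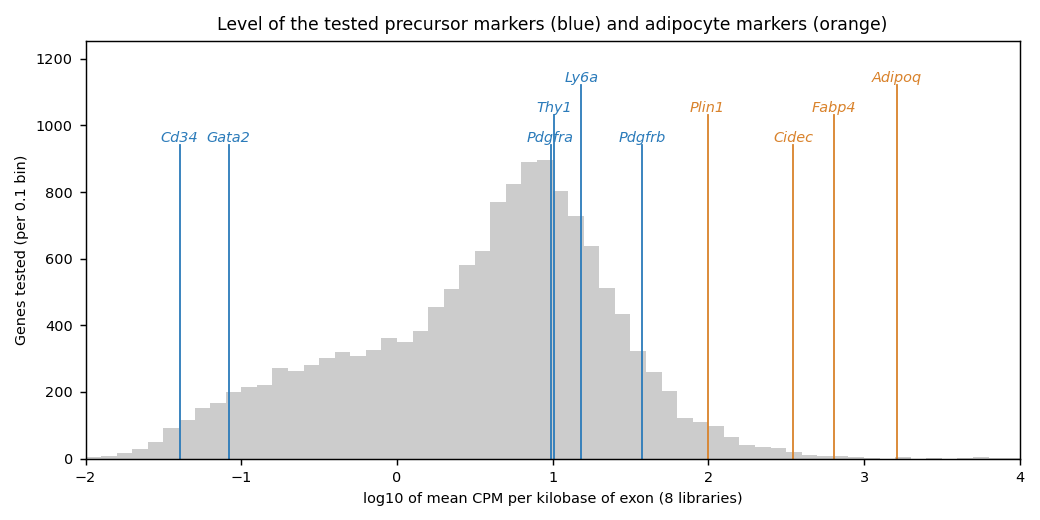
Number of tested genes (vertical axis) by log10 of mean CPM per kilobase of exon over 8 libraries (horizontal axis), with vertical lines at 6 precursor markers in blue and 4 adipocyte markers in orange. Pdgfrb, Ly6a, Thy1 and Pdgfra lie in the upper part of the distribution, Gata2 and Cd34 lie near its lower end, and Plin1 at 99 CPM per kilobase is the lowest of the adipocyte markers drawn.

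Dlk1 (chr12:109452823-109463336, plus strand, GRCm38) encodes pre-adipocyte factor 1, a membrane protein with EGF-like repeats whose shed outer part inhibits adipogenesis. It had 0 counts in each of the 8 libraries, among 405084188 counts in all, which allows a level of up to 0.00741 CPM over the 8 libraries together. The imprinted genes Meg3, Rtl1, Dio3 and Rian of the same locus were also at 0 counts in every library, and Mirg had 9 counts in all. Dlk1 was thus not detectable in any group at this depth, and no fold change can be given for it.

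The promoters of Dlk1 and Pdgfra are shown because the first gene was not detected and the second was abundant in the same libraries. Promoter windows from RefSeq were matched by symbol for 5 of the 8 markers, namely Dlk1, Wnt10b, Gata2, Pdgfra and Cd34. The windows are the 250 bases before the RefSeq start in GRCm38.p6, both on the plus strand, at chr12:109452573-109452822 for Dlk1 and chr5:75152001-75152250 for Pdgfra. Capitals mark CG dinucleotides, which read the same on both strands.
Dlk1: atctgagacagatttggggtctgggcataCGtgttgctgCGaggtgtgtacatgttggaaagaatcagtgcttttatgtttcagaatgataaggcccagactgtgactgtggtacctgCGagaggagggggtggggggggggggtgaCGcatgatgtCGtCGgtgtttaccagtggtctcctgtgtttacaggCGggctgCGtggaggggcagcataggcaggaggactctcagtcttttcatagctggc
Pdgfra: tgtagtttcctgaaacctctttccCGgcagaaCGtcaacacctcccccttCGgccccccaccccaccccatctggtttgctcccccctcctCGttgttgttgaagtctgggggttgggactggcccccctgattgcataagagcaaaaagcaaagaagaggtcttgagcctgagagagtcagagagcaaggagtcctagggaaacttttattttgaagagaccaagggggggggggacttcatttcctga
The Dlk1 window held 8 CG dinucleotides and the Pdgfra window 4, where the median of 32851 such windows was 6. As many as in Dlk1 were found in 43.0% of the windows, and as many as in Pdgfra in 62.2%. The 2 Gata2 windows held 22 and 24, the Wnt10b window 14 and the Cd34 window 6, shared by 14.8%, 12%, 29.4% and 50.4% of windows. The letters TATAAA, searched on both strands, were found in none of these windows and in 12.4% of all windows. The order of the CG counts was not the order of the transcript levels.

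Wnt10b (chr15:98770712-98778150, minus strand), a secreted WNT ligand that restrains adipogenesis through β-catenin, had 10 counts in the 8 libraries together. The untreated libraries had 2 and 1 counts, the A66 libraries 1 and 1, the palmitate libraries 2 and 0, and the palmitate plus A66 libraries 1 and 2. No library reached the floor of 3 counts, so the groups could not be compared for Wnt10b. Other parts of the WNT pathway were expressed. Of 13 other WNT ligands 7 reached 3 counts in any untreated library. Wnt5a led with an untreated mean of 4.19 CPM per kilobase, and Wnt9a was next at 0.335. Axin2, a target of β-catenin, had 2 to 9 counts per library over the 8 libraries. Among 11 tested WNT receptors Fzd5 fell with palmitate plus A66 against A66 (log2 fold change -0.31 ± 0.076 (SE), adjusted p = 0.0246, edgeR). DESeq2 called Fzd5 there too and also Lrp5, a co-receptor, with palmitate plus A66 against palmitate, where edgeR gave a log2 fold change of -0.18 (adjusted p = 0.062) and 1 receptor was called lower with scaling by library totals. Sfrp2, a secreted WNT antagonist, was 1 of 4 tested WNT inhibitors and rose with palmitate by a log2 value of 0.40 ± 0.09 (adjusted p = 0.0273, edgeR). Among 9 tested targets and effectors of β-catenin edgeR and DESeq2 called 0 in every comparison, with at most 2 at an unadjusted p under 0.05.

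Gata2 (chr6:88193891-88207032, plus strand) encodes a zinc finger transcription factor that represses Pparg in precursors. It was detected at a low level in every library. The untreated libraries held 0.424 and 0.592 CPM of Gata2 (18 and 32 counts), the A66 libraries 0.328 and 0.426 CPM (17 and 20 counts), the palmitate libraries 0.501 and 0.559 CPM (29 and 30 counts), and the palmitate plus A66 libraries 0.330 and 0.421 CPM (16 and 21 counts). Both libraries with palmitate plus A66 lay below both with palmitate, while the A66 and untreated libraries overlapped. The log2 fold change with A66 was -0.44 (95% interval -1.38 to 0.49) in untreated cells and -0.49 (-1.37 to 0.38) in palmitate, with adjusted p of 0.754 and 0.653. Changes of Gata2 from 0.385-fold to 1.4-fold with A66 therefore lay within the interval, and a change was not detectable with these counts and 2 libraries a group. With 1 library left out the log2 fold change ran from -0.65 to -0.17 with A66 and from -0.68 to -0.33 with palmitate plus A66 against palmitate. Among the other GATA factors and their cofactors, 5 of 9 could be tested, and edgeR and DESeq2 called 0 in every comparison, with 1 at an unadjusted p under 0.05 for A66. Gata6 at a mean of 3.13 CPM per kilobase was the most abundant GATA factor, followed by Gata3 at 0.387.

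Pdgfrb (chr18:61045150-61085061, plus strand) encodes the receptor tyrosine kinase PDGFRβ, which marks perivascular cells and many adipocyte progenitors, and was the most abundant of the 8 markers. The untreated libraries held 214 and 199 CPM of Pdgfrb, the A66 libraries 208 and 218, the palmitate libraries 202 and 219, and those with both agents 191 and 200. The palmitate plus A66 libraries lay below those with palmitate or with A66 alone and did not overlap with them, while untreated replicate 2, at 199 CPM, lay between the 2 of them. The other 3 groups overlapped each other. The difference fitted to palmitate plus A66 was -7.23% against palmitate (95% interval -13.4% to -0.619%) and -8.28% against A66 (-14.4% to -1.72%), and neither passed the test (adjusted p = 0.292 and 0.199, edgeR). Against palmitate the log2 fold change of Pdgfrb ran from -0.17 without palmitate replicate 1 to -0.047 without palmitate replicate 2. With A66 alone the log2 fold change was 0.045 (-0.046 to 0.14), and with palmitate alone 0.026 (-0.074 to 0.12).

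Pdgfra (chr5:75152292-75198215, plus strand) encodes PDGFRα, the receptor by which adipocyte progenitors of adult fat are most often identified. Untreated cultures gave 96.9 and 87.9 CPM of Pdgfra, A66 cultures 108 and 96.7, palmitate cultures 105 and 93.6, and cultures with both agents 95 and 94.6. Replicate 1 was the higher one in each group, and the untreated and A66 libraries overlapped. Pdgfra was 11.3% higher with A66 (95% interval 3.09% to 20.1%, log2 fold change 0.15 ± 0.053), with an unadjusted p of 0.00825 and an adjusted p of 0.174 (edgeR). Without untreated replicate 1 the log2 fold change was 0.22 (adjusted p = 0.00113), and without A66 replicate 1 it was 0.07 (adjusted p = 0.889). Each of these fits leaves 1 library in a group, which is assumed to vary like the 2 of the other group. With palmitate the log2 fold change was 0.11 (-0.013 to 0.23), with palmitate plus A66 against palmitate it was -0.069 (-0.19 to 0.05), and against A66 it was -0.11 (-0.23 to 0.0075). The interaction, by which the A66 difference in palmitate departs from that in untreated cells, was -0.22 (-0.39 to -0.05) and did not pass (adjusted p = 0.495, edgeR). With 1 library left out Pdgfra ran from 0.02 to 0.19 with palmitate and from -0.3 to -0.13 for the interaction. With palmitate plus A66 it then ran from -0.15 to 0.018 against palmitate and from -0.19 to -0.029 against A66. Exons of Pdgfra overlap those of Gm42802, Gm42803 and Mir7025 over 30 bases on its own strand and 622 on the other, of 10024 exonic bases, and whether the counting used strand is not given in the sources used here.

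The ligands and adaptors of the PDGF receptors were followed in a list of 12 genes, of which 10 were tested. Pdgfa and Pdgfc were the ligands present, at medians of 10.5 and 15.2 CPM, while Pdgfb and Pdgfd had 22 and 16 counts in all. With A66 and with palmitate edgeR and DESeq2 called 0 of the 10, with 1 and 2 at an unadjusted p under 0.05. With palmitate plus A66 against palmitate 1 passed, Pdgfrl, a PDGF receptor-like protein, which fell from 22.6 to 18.5 CPM (log2 fold change -0.29 ± 0.074, adjusted p = 0.0333, edgeR). Pdgfrl averaged 18.8 CPM in untreated cells and 19.3 CPM with A66 alone. Scaling by library totals called 2 of the 10 lower with palmitate plus A66 against palmitate. Nck2, an adaptor, had the next smallest p in that comparison, with a log2 fold change of -0.22 and an adjusted p of 0.0715. The median log2 fold change of the 10 lay between -0.018 and 0.021 over the 4 comparisons, beside medians of all tested genes between -0.0011 and 5.3e-04. Effectors linked to DLK1 gave 1 call among 7 tested, also in palmitate plus A66 against palmitate, where Notch2 fell from 127 to 113 CPM (log2 fold change -0.16 ± 0.043, adjusted p = 0.0396, edgeR).

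Ly6a (chr15:74994877-74998031, minus strand) encodes SCA-1, a GPI-anchored surface protein of stem and progenitor cells that interferon can induce in several cell types. Its 2 untreated libraries had 15.5 and 17.5 CPM, its A66 libraries 17.5 and 19.4, its palmitate libraries 18.6 and 15.4, and its palmitate plus A66 libraries 24.4 and 19.5. Palmitate plus A66 replicate 1 was above every library of the other groups, while replicate 2 at 19.5 CPM was level with A66 replicate 2 at 19.4, and the order of these 2 turned (19.2 and 19.4 CPM) when libraries were scaled by their totals only. Ly6a was 29.3% higher with palmitate plus A66 than with palmitate (95% interval 11.7% to 49.7%, log2 fold change 0.37 ± 0.10), with an unadjusted p of 0.00146 and an adjusted p of 0.0511 (edgeR). Of all markers and comparisons this value was nearest to the threshold of 0.05. It was called with the replicate number as a block (adjusted p = 0.0402), and with no filter on low counts (0.00106). Leaving out 1 library moved the log2 fold change between 0.20 and 0.52. The lowest values came without palmitate plus A66 replicate 1 (0.20, adjusted p = 0.524) and without palmitate replicate 2 (0.24, adjusted p = 0.447). The highest came without palmitate plus A66 replicate 2 (0.52, adjusted p = 0.0122) and without palmitate replicate 1 (0.51, adjusted p = 0.014), and Ly6a was also called without untreated replicate 1 or 2 (0.042 and 0.0451). Against A66 alone Ly6a was 19.3% higher (3.00% to 38.2%, adjusted p = 0.224), with A66 against untreated cells 11.7% higher (-1.0% to 26.1%, adjusted p = 0.453), and with palmitate 2.94% higher (-11.4% to 19.6%, adjusted p = 0.918). With 1 library left out the log2 fold change ran from 0.085 (without palmitate plus A66 replicate 1) to 0.41 (without replicate 2) against A66 alone, and from 0.077 (without untreated replicate 1) to 0.26 (without replicate 2) with A66 against untreated cells. The test of the interaction gave a log2 value of 0.21 (-0.09 to 0.52, adjusted p = 0.769, edgeR), so the A66 difference of Ly6a was not shown to differ between the backgrounds.

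Ly6a lies in a cluster of related genes, and the start of its coding sequence is shown beside that of Ly6c1, a neighbour expressed at a similar level per kilobase. The stretches are the first 99 coding bases on the minus strand of GRCm38, of Ly6a at chr15:74997535-74997604 and chr15:74996540-74996568, and of Ly6c1 at chr15:75048442-75048511 and chr15:75047441-75047469. Capitals mark the 5 positions at which they differ.
Ly6a: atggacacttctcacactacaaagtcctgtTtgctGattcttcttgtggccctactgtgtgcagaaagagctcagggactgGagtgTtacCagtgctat
Ly6c1: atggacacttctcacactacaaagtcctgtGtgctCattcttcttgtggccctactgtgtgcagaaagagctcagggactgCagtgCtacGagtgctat
Over the whole coding sequence, 402 bases in Ly6a and 393 in Ly6c1, identity was 81.8% and the longest identical run was 48 bases. No window of 100 bases of the Ly6a transcript was found unchanged in a transcript of another gene, which was also so for the other 7 markers, while 15.3% of the windows of Ly6c1 were shared with Ly6c2. Ly6c1 rose with A66 in both backgrounds, from 20.7 ± 1.70 to 26.7 ± 0.0331 CPM without palmitate (log2 fold change 0.37 ± 0.072, adjusted p = 0.00628) and from 21.0 ± 0.729 to 28.5 ± 0.990 CPM with it (0.44 ± 0.069, adjusted p = 7.31e-04, edgeR, n = 2). Ly6e, another family member, averaged 39.9 CPM with A66 beside 45.9 CPM in untreated cells. Neither edgeR nor DESeq2 called Ly6e there, though scaling by library totals called 1 family gene lower. With palmitate plus A66 against palmitate Ly6e fell (log2 fold change -0.21 ± 0.057, adjusted p = 0.0448, edgeR), a call that DESeq2 did not make. Ly6a therefore differed in the same direction as Ly6c1 and the opposite direction to Ly6e in that comparison. Of 12 interferon-stimulated genes 9 fell in the same comparison (8 by DESeq2). Oasl2 had the smallest p of these, with a log2 fold change of -1.92 ± 0.23 (adjusted p = 6.13e-05, edgeR). The part of these genes in the values of Ly6a was not tested.

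Cd34 (chr1:194938819-194961279, plus strand) encodes a sialomucin of haematopoietic, endothelial and adipose stromal progenitors. Cd34 stood at 0.283 and 0.351 CPM (12 and 19 counts) without treatment, 0.174 and 0.320 CPM (9 and 15 counts) under A66, 0.173 and 0.392 CPM (10 and 21 counts) under palmitate, and 0.330 and 0.321 CPM (16 and 16 counts) under both agents. The 2 palmitate libraries spanned the whole range of Cd34. Palmitate plus A66 lay above A66 alone by a margin within rounding (0.321 against 0.320 CPM), which turned with scaling by library totals (0.315 against 0.319), and the other groups overlapped. The log2 fold change was -0.38 (95% interval -1.52 to 0.76) with A66, -0.19 (-1.29 to 0.91) with palmitate and 0.22 (-0.88 to 1.31) with palmitate plus A66 against palmitate. With 118 counts over 8 libraries, changes of Cd34 between 0.349-fold and 2.93-fold lay within the intervals of these comparisons and of palmitate plus A66 against A66. The 5 endothelial genes summed to between 1.04 and 1.25 CPM in untreated cells, 1.02 and 1.27 under A66, 0.881 and 1.03 under palmitate and 1.26 and 1.3 under both agents, and their part in the values of Cd34 was not tested. Exons of Cd34 share 148 bases with Gm16897 on the opposite strand.

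Thy1 (chr9:44043384-44048579, plus strand) encodes THY1 or CD90, a GPI-anchored protein of fibroblasts and mesenchymal stromal cells. In CPM, Thy1 was measured at 33.3 and 31.8 without treatment, 26.8 and 29.7 under A66, 32.8 and 31.7 under palmitate, and 31.8 and 27.5 under both agents. Both A66 libraries lay below both untreated libraries, whereas the palmitate and palmitate plus A66 libraries overlapped. Thy1 was 13.1% lower with A66 (95% interval -21.0% to -4.44%, log2 fold change -0.20 ± 0.066), with an unadjusted p of 0.00572 and an adjusted p of 0.148 (edgeR). Without A66 replicate 1 the log2 fold change of Thy1 was -0.13 (adjusted p = 0.806) and without A66 replicate 2 it was -0.28 (adjusted p = 0.163). In palmitate the A66 difference was -8.09% (-16.9% to 1.59%, adjusted p = 0.451), with a log2 fold change from -0.23 to -0.02 when 1 library was left out. The interaction was 0.084 (-0.12 to 0.29, adjusted p = 0.895). Palmitate against untreated cells gave -0.95% (-10.3% to 9.43%), and palmitate plus A66 against A66 gave 5.02% (-5.16% to 16.3%). Partners of CD34 and THY1 were followed as 12 genes, of which 9 were tested. Of these Cav1, which encodes the caveolar coat protein caveolin-1, fell with palmitate plus A66 against palmitate from 1080 to 927 CPM (log2 fold change -0.22 ± 0.041, adjusted p = 0.00362, edgeR), a call that DESeq2 also made against A66, where edgeR gave -0.12 (adjusted p = 0.129). In the first of these Sdc4, a syndecan, had a log2 fold change of -0.16 (adjusted p = 0.225).

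**Figure D2:**
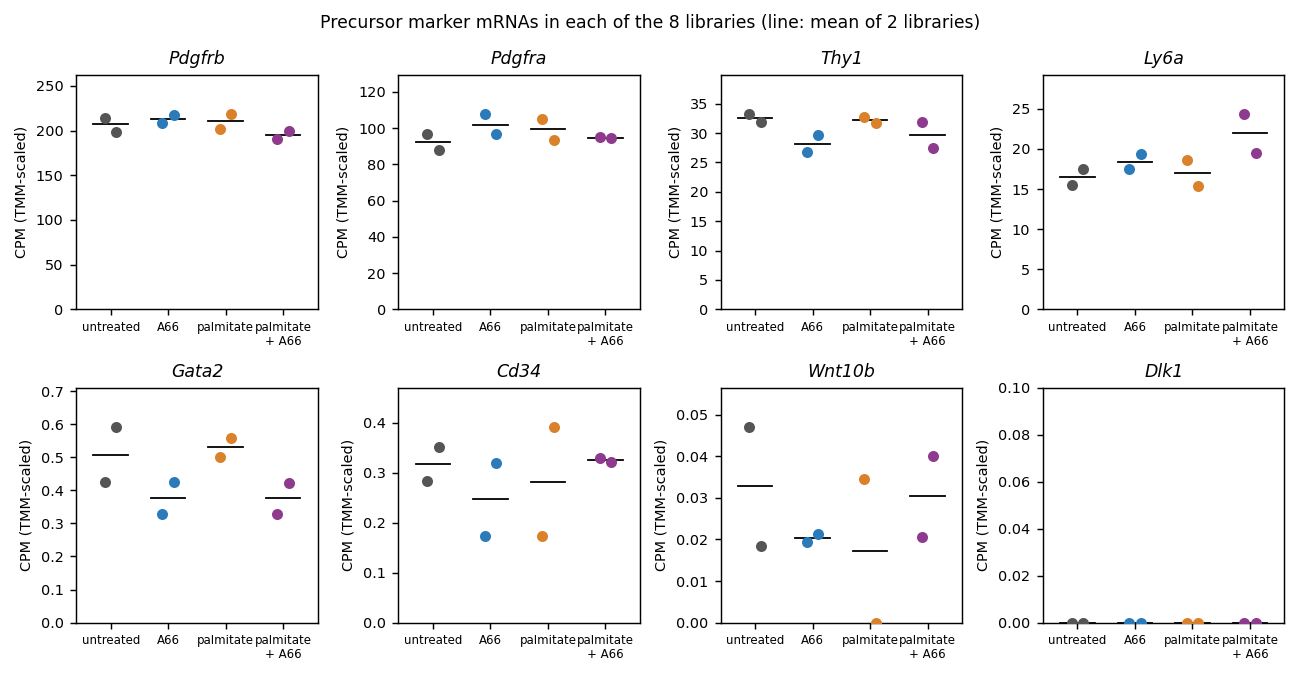
CPM (TMM-scaled, vertical axis from 0, own scale per gene) of each precursor marker in each of the 8 libraries, with points for single libraries and a line at the mean of the 2 libraries of a group. Ly6a in palmitate plus A66 (24.4 and 19.5 CPM) lies above the palmitate and untreated libraries, with its lower value level with the higher A66 library, Thy1 with A66 (26.8 and 29.7 CPM) lies below the untreated libraries, and Dlk1 is at 0 throughout.

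Across the 6 tested markers, 0 had an adjusted p under 0.05 in any of the 5 comparisons by edgeR. With A66 against untreated cells 2 of the 6, Pdgfra and Thy1, had an unadjusted p under 0.05, and DESeq2 called 0 and gave an unadjusted p under 0.05 to 2. In that comparison 1.84% of all tested genes were called and 12.8% had an unadjusted p under 0.05. With palmitate against untreated cells 0 of the 6 had an unadjusted p under 0.05, as with DESeq2, where 1.17% of all genes were called and 12.0% had such a p. Beside such shares of all genes, 0 of 6 is not a result about the markers as a set.

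With palmitate plus A66 against palmitate 2 markers, Ly6a and Pdgfrb, had an unadjusted p under 0.05, and DESeq2 called 0 with 2 such values, beside 2.81% and 14.4% of all genes. With palmitate plus A66 against A66 the same 2 had such a p, and DESeq2 called 0 with 2 such values, beside 2.73% and 14.6% of all genes. For the interaction Pdgfra and Pdgfrb had such a p, and DESeq2 called 0 with 2 such values, beside 0.00686% and 7.92% of all genes. DESeq2 gave an adjusted p to 4 of the 6 markers, and its lowest were 0.34, 0.59, 0.0512, 0.191 and 0.556 in the order of the 5 comparisons. Comparisons that share a group of libraries, such as A66 and palmitate against the same untreated cells, are not independent of each other.

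Groups of 2 libraries did not overlap for 2 of the 6 markers with A66, 0 with palmitate, 3 with palmitate plus A66 against palmitate and 4 with palmitate plus A66 against A66. Among all tested genes 42.7%, 40.5%, 44.3% and 46.6% did not overlap in these comparisons, so separation of 2 libraries from 2 was common. With scaling by library totals Ly6a overlapped with A66, which left 1 marker, and Ly6a and Cd34 overlapped in palmitate plus A66 against A66, which left 2. The intervals bound the size of change that these data leave for the 4 markers well above the floor. Over the 4 pairwise comparisons the 95% intervals of Pdgfrb, Pdgfra, Thy1 and Ly6a ran from 0.79-fold (Thy1 with A66) to 1.5-fold (Ly6a with palmitate plus A66 against palmitate). The median absolute log2 fold change of the 6 markers was 0.18 with A66, 0.044 with palmitate, 0.17 with palmitate plus A66 against palmitate and 0.12 with palmitate plus A66 against A66. For all tested genes it was 0.076, 0.079, 0.0847 and 0.0854, and for the genes called 0.24, 0.27, 0.26 and 0.27. The value of the 6 includes Gata2 and Cd34, whose estimates have wide intervals.

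**Figure D3:**
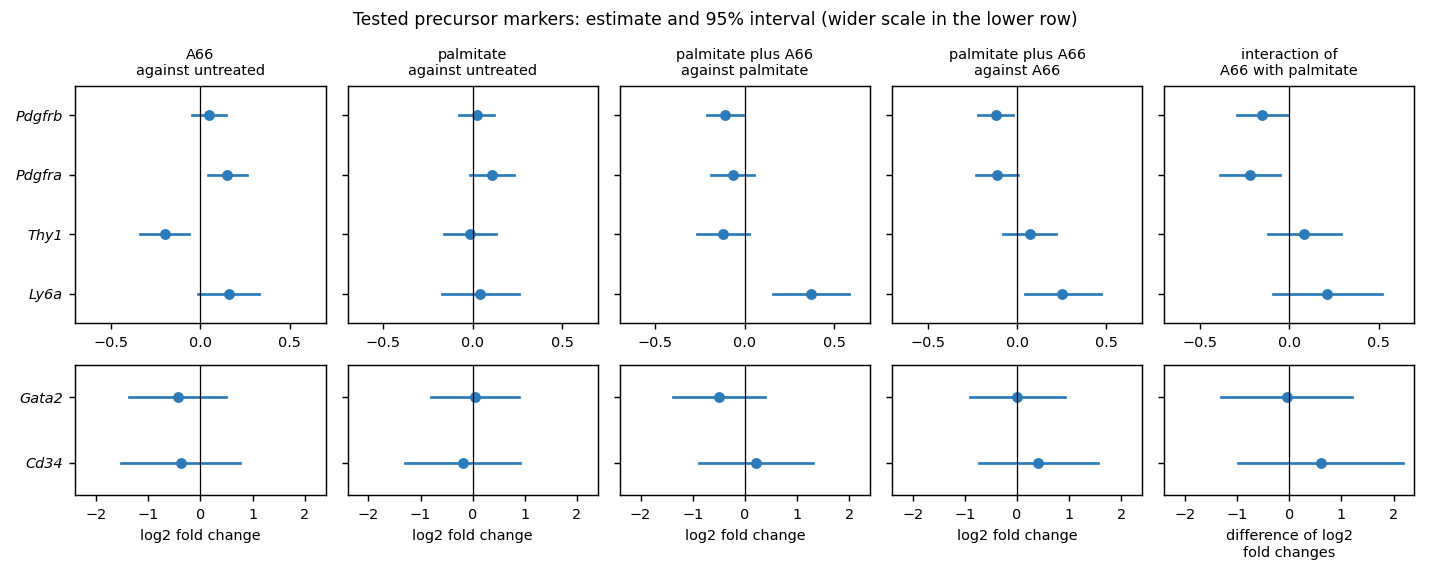
Log2 fold change (horizontal axis; for the interaction, the difference of log2 fold changes) of the 6 tested precursor markers in 5 comparisons, with points for the edgeR estimates and lines for their 95% intervals, and a wider scale in the lower row. The interval of Ly6a with palmitate plus A66 against palmitate (0.16 to 0.58) lies farthest from 0, and the intervals of Gata2 and Cd34 all span 0.

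Other markers of stromal progenitors were examined as a list of 30 genes, since the 8 markers are a small part of those in use. Most of them were expressed. In the untreated libraries 26 reached 3 counts, led by the matrix genes Col3a1 and Fn1 at means of 340 and 258 CPM per kilobase there. Dpp4, Tcf21 and Wnt2 had 0 counts in all libraries. Pi16, with Dpp4 a marker of early progenitors, had a median of 0.348 CPM over all libraries. With A66 2 of 24 tested rose, Vim, an intermediate filament (log2 fold change 0.19 ± 0.039, adjusted p = 0.0082), and Vcam1, an adhesion molecule (0.20 ± 0.043, adjusted p = 0.011, edgeR). With palmitate 3 of 25 rose, Postn from 295 ± 25.9 to 367 ± 10.8 CPM (0.32 ± 0.057, adjusted p = 0.00323), Col1a1 (0.25 ± 0.044, adjusted p = 0.00331) and Lum (0.27 ± 0.053, adjusted p = 0.0103, edgeR). They encode periostin, a chain of collagen I and lumican, while other matrix genes of the list, Col3a1, Fn1, Dcn and Mfap5, were not called (adjusted p = 0.874, 0.45, 0.465 and 0.85). With palmitate plus A66 against palmitate 3 of 25 fell by edgeR, while DESeq2 called 4 lower (Col3a1 in addition) and 1 higher, Vim (0.14 ± 0.043 by edgeR, adjusted p = 0.0746). With scaling by library totals 5 were called lower. Those called by edgeR by TMM were again Col1a1 (-0.33 ± 0.044, adjusted p = 1.75e-04), Postn (-0.36 ± 0.057, adjusted p = 8.32e-04) and Lum (-0.26 ± 0.053, adjusted p = 0.00654, edgeR). Both comparisons use the same palmitate libraries, and the interaction did not pass for any of the 3 (adjusted p = 0.295, 0.501 and 0.283 for Col1a1, Postn and Lum, edgeR), though DESeq2 called it for Col1a1.

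Against A66 alone, 2 of 25 fell with palmitate plus A66. They were Zfp423, a zinc finger protein of committed pre-adipocytes, from 44.2 ± 1.6 to 35.9 ± 0.986 CPM (log2 fold change -0.30 ± 0.062, adjusted p = 0.00608, edgeR, n = 2), and S100a4, a calcium-binding protein of fibroblasts (-0.21 ± 0.051, adjusted p = 0.0245, edgeR). The medians of the list were 0.032, 0.051, -0.014 and 0.011 in the 4 comparisons, near the medians of all genes, and the last was -0.0048 when libraries were scaled by their totals only. An unadjusted p under 0.05 (edgeR) was given to 10 of 24, 5 of 25, 6 of 25 and 4 of 25 tested. For all tested genes the shares were 12.8%, 12.0%, 14.4% and 14.6%, with 1.84%, 1.17%, 2.81% and 2.73% called. Whether the list as a whole changed was not tested. Adipocyte markers were read in the same libraries. Of 14 tested, 0 were called with A66 by edgeR or DESeq2. An unadjusted p under 0.05 was given to 7 of them, and scaling by library totals called 1 lower. With palmitate 1 rose (Car3) and 2 fell (Lpl and Pnpla2). With palmitate plus A66, 4 fell against palmitate and 9 fell against A66, the latter with a list median log2 fold change of -0.23. DESeq2 called 0, 1, 2 and 6 adipocyte markers in these comparisons. Over the 8 libraries their summed level ranged from 17063 to 20428 CPM. The summed level of the 8 precursor markers, which is mostly Pdgfrb and Pdgfra, ranged from 338 to 365 CPM. Whether the 2 kinds of marker differed in how often they changed was not tested.

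A list of 7 mural and myofibroblast genes held 4 that could be tested with A66 and 5 in the other comparisons. With A66 against untreated cells 2 of 4 rose, Tagln and Acta2, which encode the actin-associated transgelin and smooth muscle actin (log2 fold change 0.45 ± 0.082 and 0.23 ± 0.055, adjusted p = 0.00285 and 0.0262, edgeR). The other two, Mcam and Myh11, had values of -0.10 and -0.067 and did not pass (adjusted p = 0.239 and 0.815). With palmitate plus A66 against palmitate Tagln and Acta2 again rose (0.35 ± 0.096 and 0.35 ± 0.088, adjusted p = 0.0488 and 0.0305, edgeR), and with scaling by library totals 1 of the 2 was called there. The other 3 tested genes had negative values, Mcam -0.19, Myh11 -0.26 and Cspg4 -0.65 (adjusted p = 0.121, 0.121 and 0.711), and the median of the list was -0.19. The list therefore did not move in 1 direction. By DESeq2 Tagln was called in both comparisons and Acta2 in neither. Of 10 genes of dividing cells edgeR and DESeq2 called 0 in every comparison, with 2 at an unadjusted p under 0.05 for A66. The summed level of the genes of dividing cells lay between 112 and 133 CPM. The part of any of these cell types in the values of the precursor markers was not tested.

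**Figure D4:**
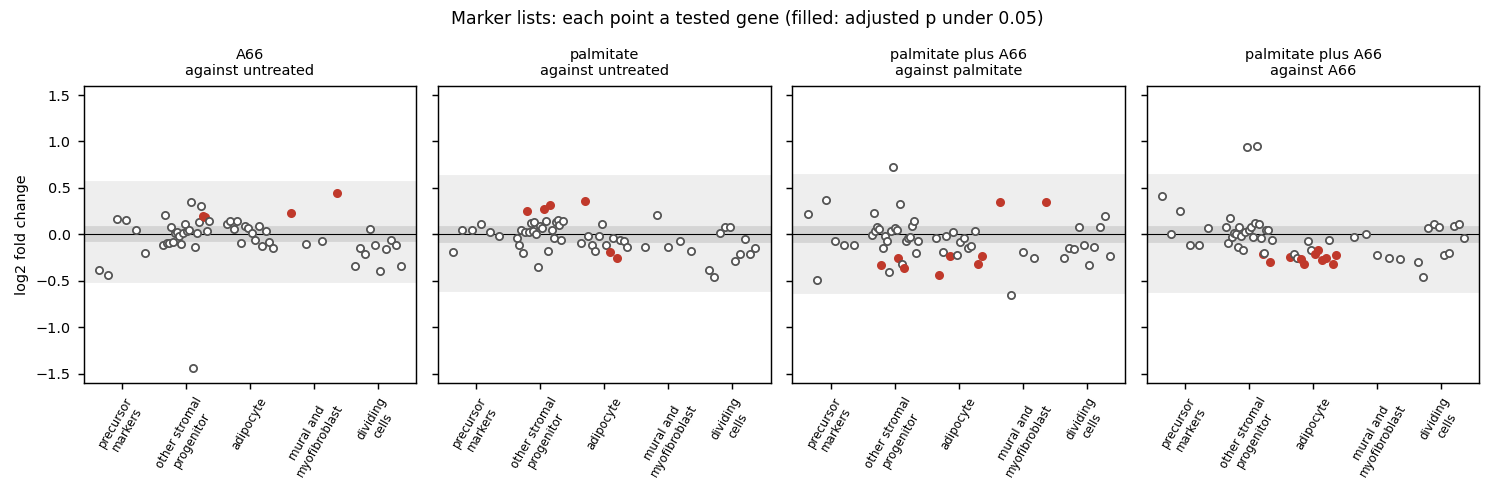
Log2 fold change (vertical axis) of every tested gene of 5 marker lists (horizontal axis) in the 4 pairwise comparisons, with red points for genes with an adjusted p under 0.05, and grey bands for the interquartile range and the middle 95% of all tested genes. The 6 tested precursor markers have no red point. In palmitate plus A66 against A66, 9 of 14 adipocyte markers are red and below 0, beside 2.73% of all tested genes called. Whether the kinds of marker differed in how often they changed was not tested.

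Genes whose pattern over the 8 libraries was most like that of each marker were sought among 11956 genes with a mean of at least 1 CPM, by Pearson's r of log2 CPM. The highest were Tpm4 (r = 0.971) and Flna (0.970) for Ly6a, Col23a1 (0.953) and Ehbp1 (0.946) for Pdgfra, Zfp385a (0.944) for Pdgfrb, and Crkl (0.960) and Syne1 (0.957) for Thy1. For the low genes they were Slc43a2 (0.960) and Slc35c1 (0.957) for Cd34, and Isyna1 and Dctn6 (both 0.951) for Gata2. These values are the highest of many over n = 8 libraries that share 4 treatments, and are given as a description. Between 11 genes (Pdgfra) and 48 genes (Ly6a) reached r = 0.9. The patterns of the markers over these libraries were not alike. With no marker called in the main fit, r here mixes replicate spread and treatment. It cannot show whether the markers are regulated together. Over the pairs of tested markers other than Cd34 with Gata2, which was not computed, r ran from -0.92 for Cd34 with Pdgfra, the first of which rests on few counts, to 0.47 for Gata2 with Thy1. The 4 well-expressed markers had r from -0.73 (Ly6a with Pdgfrb) to 0.10 (Pdgfra with Pdgfrb).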

How the data were processed

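The authors aligned stranded, oligo(dT)-selected libraries to the mouse genome (GRCm38) with TopHat 2.0.11 and counted reads on genes with HTSeq. The deposited values used here are these raw counts per Ensembl gene, without normalization, with 1 column per library. The annotation and strand setting of the counting are not given in the sources used here. The authors also deposited DESeq2 columns for A66 against untreated cells (mean of normalized counts, log2 fold change with its standard error, Wald statistic, p-value and adjusted p-value), which were not used. Their fold change appeared to have the sign of untreated over A66 when set against the labelled counts, and this was not tested further. The sources used here do not state its direction, whereas the A66 values here are treated over untreated by the labels. Symbols and exon lengths came from GENCODE M21 for 42462 of 43629 genes, and no row named anything but a gene.

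Differences were tested in R 4.3.3 with edgeR 4.0.16 (TMM, filterByExpr with a minimum count of 10, quasi-likelihood tests, two-sided, Benjamini-Hochberg adjustment over all genes tested, threshold 0.05). The A66 contrast used only the 4 libraries that received no palmitate (14158 genes tested), whereas the remaining comparisons and the interaction were fitted on all 8 (14587 genes). Groups follow the treatment labels, and every direction depends on those labels. The methods of the study speak of biological repeats, whereas the labels do not say that replicates were separate cultures, in which case p-values measure the spread between these samples only. Library totals were 42247091 to 57529803. Molecular identifiers are not named in the sources used here, and a floor of 3 counts reflects counting error alone. The scripts were tested on simulated data.

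The members and the gene lists were chosen with earlier results of these data known. The genes named are the 8 markers, 4 adipocyte markers, the 2 genes with the smallest p of each list in each comparison in which a gene of that list was called, and the 2 genes most correlated with each marker. Other genes named (levels of pathway genes, genes at 0 and the third of 3 calls, Lum, with Lpl) were chosen after their values were seen. Some genes that the rule takes are not reported here. Alternatives were RLE or library-size scaling, DESeq2 1.42.0 (Wald test), dropping the filter or asking for 10 counts in each library, a different set of libraries in the fit, a replicate block, and omission of each library.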

Additional observations from a re-analysis of the deposited data

How the results depend on the processing

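Of the 30 log2 fold changes of markers, 1 turned sign under an alternative that kept all libraries, that of Gata2 with palmitate plus A66 against A66, from 7.1e-04 to -9.4e-04 (RLE), -0.016 (library size only), -0.0038 (DESeq2), -0.0012 (no filter) and -0.005 (replicate block). The number of markers called, 0 in every comparison, became 1 with no filter on low counts for A66 (Pdgfra, adjusted p = 0.035) and for palmitate plus A66 against palmitate (Ly6a). The labels do not say whether same-numbered libraries were processed together. Deviations of same-numbered libraries correlated between -0.105 and 0.127 over 11144 genes, which cannot decide this with so few libraries a group. The replicate block called 1 marker, Ly6a, with palmitate plus A66 against palmitate and otherwise left the calls of markers at 0. With no filter, genes called went from 261 to 459 with A66, 171 to 396 with palmitate, 410 to 652 with palmitate plus A66 against palmitate, 398 to 664 against A66 and 1 to 91 for the interaction. The interaction, called for Hmox1 alone, gave 2 genes with library size only, 8 with DESeq2 and 3 with the block. A fit on only the 4 libraries compared gave 689 genes for palmitate plus A66 against A66. The mean of Pdgfra in palmitate plus A66 was 93.7 CPM with library size only. The cause of these shifts was not tested.

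Leaving out each library gave 98 to 635 genes called with A66 (without A66 replicate 2 and without untreated replicate 2), 71 to 245 with palmitate (without palmitate replicate 1 and 2), 147 to 494 with palmitate plus A66 against palmitate (without palmitate replicate 2 and untreated replicate 1), 107 to 502 against A66 (without A66 replicate 1 and either palmitate replicate) and 0 to 10 for the interaction. Markers called ranged from 0 to 1 with A66 and with palmitate plus A66 against palmitate, and stayed at 0 otherwise. In 23 of 216 such values a marker turned sign, over 13 of the 30 fold changes, none of them past the threshold. These were with A66 Pdgfrb (-0.0043 to 0.10) and Cd34 (-0.86 to 0.0046). With palmitate they were Pdgfrb (-0.032 to 0.084), Ly6a (-0.10 to 0.17), Cd34 (-0.87 to 0.29), Thy1 (-0.048 to 0.019) and Gata2 (-0.16 to 0.32). With palmitate plus A66 they were Pdgfra (-0.15 to 0.018) and Cd34 (-0.27 to 0.90) against palmitate, and Thy1 (-0.039 to 0.17) and Gata2 (-0.19 to 0.19) against A66. For the interaction they were Thy1 (-0.028 to 0.19) and Gata2 (-0.32 to 0.16). Gata2, Cd34 and Wnt10b rest on few counts and on 2 libraries a group, and whether Ly6a and Pdgfra pass depends on which library is left out, in fits in which the lone library of a group is assumed to vary like the others.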

Other observations

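Other repressors of adipogenesis, 14 genes that were all expressed and tested, gave 1 call. Egr1, an immediate early transcription factor, fell from 12 ± 1.35 CPM with A66 to 8.69 ± 0.881 CPM with palmitate plus A66 (log2 fold change -0.46 ± 0.12, adjusted p = 0.0315, edgeR, n = 2). Against untreated cells it was 0.38 ± 0.10 with A66 (adjusted p = 0.0621). The summed level of the 14 lay between 700 and 776 CPM in the 8 libraries.

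Genes that respond to these pathways were read as 10 targets of FOXO factors and 8 targets of PPAR factors, all tested. Of the FOXO targets edgeR called 1 with A66, 0 with palmitate (2 at an unadjusted p under 0.05, and 0 by DESeq2), 2 with palmitate plus A66 against palmitate and 1 against A66 (2 by DESeq2 and 3 with scaling by library totals). Of the PPAR targets edgeR called 1, Plin2, with palmitate plus A66 against A66, where DESeq2 also called Acadvl lower (-0.16 by edgeR, adjusted p = 0.085) and scaling by library totals called 1 higher and 1 lower. In the other 3 pairwise comparisons edgeR called 0 PPAR targets, with 2, 3 and 2 at an unadjusted p under 0.05, while DESeq2 called 0, 1 and 1. Most of both lists, Irs2, Insr, Pdk4 and Cpt1a among them, were not called by edgeR. Pik3r1, which encodes the p85α regulatory subunit of PI3K, fell with A66 from 255 ± 11.9 to 204 ± 2.34 CPM (log2 fold change -0.32 ± 0.042, adjusted p = 1.34e-04, edgeR, n = 2) and with palmitate plus A66 against palmitate from 241 ± 5.54 to 184 ± 4.18 CPM (-0.39 ± 0.043, adjusted p = 1.97e-05). Klf15, a transcription factor of mature adipocytes, fell with palmitate plus A66 against A66 (-0.26 ± 0.048, adjusted p = 0.00234, edgeR) and against palmitate (-0.19 ± 0.048, adjusted p = 0.0278). Plin2, a lipid droplet coat protein, was highest with palmitate plus A66 at 270 ± 7.99 CPM and rose against A66 alone (0.21 ± 0.043, adjusted p = 0.00737, edgeR).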
